A study of Homo sapiens with 6 samples.

Results

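Polysialic acid and the sialylated glycolipids called gangliosides are built by a small group of enzymes, and 10 of their genes were followed after depletion of the long noncoding RNA CyCoNP. They were CMAS, the sialyltransferases ST8SIA1 to ST8SIA5, ST3GAL2 and ST3GAL5, the ganglioside synthase B4GALNT1 and the sialidase NEU1. They were taken by gene symbol, and each symbol matched 1 Ensembl identifier among the 60676 identifiers of the count and FPKM tables (FPKM, fragment counts scaled by gene length and by the library total). RNA was sequenced from the human neuroblastoma line SK-N-BE at 1.5 days in differentiation medium with 10 μM retinoic acid, which both groups received. One group had a scrambled small interfering RNA (si-SCR, 3 libraries) and the other a pool of such RNAs directed against CyCoNP (si-CyCoNP, 3 libraries). Both groups come from 1 tumour cell line and 1 time of differentiation, which limits them as a model of neurons.

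Sialic acid is activated by coupling to the nucleotide CMP before any transferase can use it. Polysialic acid is a long chain of sialic acids carried mainly by the neural cell adhesion molecule NCAM1, where it weakens contacts between cells, and it is abundant on young and migrating neurons. Gangliosides are lipids with a sugar head that carries sialic acid. They are plentiful in neuronal membranes, and the ganglioside GD2 is a well known surface antigen of neuroblastoma.

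B4GALNT1, the synthase of the gangliosides GM2 and GD2, was 2.66-fold higher with si-CyCoNP (log2 fold change 1.41, standard error (SE) 0.0928, edgeR, adjusted p = 9.21e-12). ST8SIA3, NEU1 and ST3GAL2 were lower, with log2 fold changes of -0.66, -0.44 and -0.23 (edgeR, adjusted p = 0.000184, 0.00847 and 0.0438), and the call of ST3GAL2 was lost in 10 of 15 alternative settings. ST8SIA2 and ST8SIA4, which make polysialic acid on NCAM1, did not pass the test, while the RNA of NCAM1 itself fell by 1.11 on the log2 scale (SE 0.104, edgeR, adjusted p = 5.35e-09). Of the 10 genes, 7 reached a mean of 1 FPKM in both groups and were tested, and 3 (ST8SIA1, ST3GAL5 and ST8SIA5) lay below it in both groups. At an adjusted p under 0.05 in edgeR, 1 of the 7 was higher and 3 were lower, where 14.2% of all 13966 genes tested were higher and 14.2% were lower. B4GALNT1 was the 1 gene of the 7 whose log2 fold change was also above 1, as for 2.28% of all genes tested, and none of the 7 was below -1, as for 2.98%. The FPKM values of the groups did not overlap for 4 of the 7, against 40.3% of all genes tested. The median log2 fold change of the 7 was -0.12, and that of all genes tested was 0.0053.

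The libraries held between 3762009 and 4799407 counted fragments, and 26034682 in all. LINC02381, the gene of CyCoNP (chr12:54126019-54147485, GRCh38, plus strand), was counted 274, 208 and 315 times with si-SCR and 20, 30 and 12 times with si-CyCoNP, and was 13.7-fold lower (log2 fold change -3.78, SE 0.190, edgeR, adjusted p = 6.95e-14). On the first principal component of log2 CPM (counts relative to the library size), with 51.4% of the variance, the si-CyCoNP libraries lay between 29.2 and 32.2 and the si-SCR libraries at -34.8, -35.5 and -20.9, so that si-SCR replicate 3 was the control nearest to the other group. Markers of the adrenergic state of neuroblastoma were present in every library. Their summed level was 2342 to 2786 FPKM with si-SCR and 1953 to 2124 FPKM with si-CyCoNP. At an adjusted p under 0.05 in edgeR, 1 of the 9 was higher and 6 were lower, where 14.2% of all genes tested were called in each direction. The higher one was MYCN, with means of 428 and 806 FPKM, which offset part of the fall of the others in the sum. PHOX2A, CHGA and CHGB had log2 fold changes of -1.13, -1.24 and -1.01, and GATA3, HAND2 and DBH were lower by less. ISL1 and TH did not pass the test. Of 5 Schwann cell or glial markers 3 are reported here, of which SOX10 had no count, ERBB3 had 4 counts and S100B had 18 counts in all libraries together. Of the 7 mesenchymal markers 4 were tested, and PRRX1 had no count. VIM and SNAI2 were lower, and CD44 did not pass the test. FN1 was higher, with means of 0.697 FPKM with si-SCR and 5.41 FPKM with si-CyCoNP. It reached a mean of 1 FPKM in si-CyCoNP alone, so it could be tested only if it was higher. The summed level was 62.5 to 70.1 FPKM with si-SCR and 49.7 to 57.3 FPKM with si-CyCoNP. Most of this sum was VIM, with means of 56.3 and 43.9 FPKM. The part of these markers in the results on the enzymes was not tested, and in these bulk libraries fewer cells of a kind and less RNA per cell cannot be told apart.

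The study asked, among other things, whether CyCoNP and the microRNA miR-4492 act together on NCAM1. The word that pairs with the seed of this microRNA was therefore looked up in the enzymes and in the carriers of polysialic acid. The mature miR-4492 is shown with its seed, bases 2 to 8, in capitals, and lies at chr11:118910765-118910781 on the plus strand (RefSeq, GRCh38.p14).
miR-4492: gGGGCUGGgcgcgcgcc
The word that pairs with this seed is CCAGCCC, and it was searched on the sense strand of the 3′ UTR of the canonical transcript of each gene (GENCODE release 44). It was present at least once in 2452 of 10488 protein-coding genes tested (23.4%), at a median 3′ UTR of 1397 bases. Over all these 3′ UTRs there were 0.183 matches per kilobase. The enzymes that hold a match have 3′ UTRs longer than the median, so the share of genes is not a like background for them. The words of the 3 tested enzymes that hold one, and of NCAM1, are shown with the flanking bases, with the match to the seed in capitals.
ST8SIA2, chr15:92466127-92466147, plus strand: acaagaacactCCAGCCCaaa
ST8SIA2, chr15:92467013-92467033, plus strand: tccaccctcagCCAGCCCtca
ST8SIA2, chr15:92467837-92467857, plus strand: ctctctgcaacCCAGCCCtct
B4GALNT1, chr12:57626294-57626314, minus strand: gtgtacctgctCCAGCCCcac
ST3GAL2, chr16:70378146-70378166, minus strand: tttgaccacacCCAGCCCata
NCAM1, chr11:113276845-113276865, plus strand: gaagggaaaagCCAGCCCttt
ST8SIA2 held 3 matches in a 3′ UTR of 4343 bases, B4GALNT1 held 1 in 3335 bases, ST3GAL2 held 1 in 5712 bases and NCAM1 held 1 in 3049 bases. ST8SIA3 (8654 bases), ST8SIA4 (4914 bases), NEU1 (2060 bases) and CMAS (357 bases) held none. Among the enzymes below the expression filter, ST8SIA5 held 3 in 12221 bases, ST8SIA1 held 1 in 8161 bases and ST3GAL5 held 1 in 3024 bases. The carriers NRP2 and CADM1 held none in 3073 and 7238 bases. A match alone is a description of these letters and does not show binding. For NCAM1 the study predicted a miR-4492 site in the 3′ UTR with 3 programs. Its reporter with that 3′ UTR rose when the microRNA was blocked, and did not change when the predicted site was missing. Depletion of CyCoNP strongly lowered the reporter with the site, and the study describes a much smaller effect without it. Whether that site is the word shown here was not checked. The genes that hold a word included one that was higher (B4GALNT1), 2 that were lower (ST3GAL2 and NCAM1) and one that did not pass the test (ST8SIA2).

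CMAS couples sialic acid to CMP and so provides the substrate of every sialyltransferase. The gene lies at chr12:22046218-22065674 on the plus strand (ENSG00000111726, 8 exons in the canonical transcript), and the end of its span overlaps the end of ST8SIA1 on the opposite strand. Its level was 15.8, 17.5 and 16.4 FPKM with si-SCR and 21.2, 16.2 and 22.6 FPKM with si-CyCoNP. Replicates 1 and 3 of si-CyCoNP lay above all controls and replicate 2 lay among them, so the groups overlapped. The means of 16.6 ± 0.861 and 20.0 ± 3.36 FPKM (SD, n = 3) differed by a log2 fold change of 0.21 with a 95% interval from -0.07 to 0.49 (edgeR, adjusted p = 0.286), so CMAS did not pass the test. Leaving out si-CyCoNP replicate 3 gave a log2 fold change of 0.11 and leaving out replicate 2 of that group gave 0.34, and neither passed the test (edgeR, adjusted p = 0.675 and 0.0829).

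ST8SIA2 and ST8SIA4 are the polysialyltransferases, which extend the chain on NCAM1. ST8SIA2 (ENSG00000140557, chr15:92393881-92468728, plus strand, 6 exons) was at 7.16, 6.50 and 8.65 FPKM with si-SCR and 9.51, 7.56 and 8.25 FPKM with si-CyCoNP. Its groups overlapped, with the lowest value in si-SCR replicate 2 and the highest in si-CyCoNP replicate 1. The means were 7.44 ± 1.10 and 8.44 ± 0.988 FPKM (SD, n = 3), and the log2 fold change of 0.11 had a 95% interval from -0.14 to 0.37 (edgeR, adjusted p = 0.546). ST8SIA4 (ENSG00000113532, chr5:100806933-100903282, minus strand, 5 exons) was at 3.28, 2.93 and 3.61 FPKM with si-SCR and 3.33, 3.31 and 2.84 FPKM with si-CyCoNP. These values also overlapped, since 2 of the 3 si-CyCoNP libraries lay among the controls and replicate 3 lay below them. The means were 3.27 ± 0.343 and 3.16 ± 0.279 FPKM (SD, n = 3). The log2 fold change was -0.12, with a 95% interval from -0.42 to 0.18 (edgeR, adjusted p = 0.593).

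Together the polysialyltransferases summed to 10.4, 9.42 and 12.3 FPKM with si-SCR (10.7 ± 1.44, SD, n = 3) and 12.8, 10.9 and 11.1 FPKM with si-CyCoNP (11.6 ± 1.08, SD, n = 3). ST8SIA2 was the more abundant in all 6 libraries, with 69.4% ± 1.03 (SD, n = 3) of the sum with si-SCR and 72.7% ± 2.71 (SD, n = 3) with si-CyCoNP. On this scale, which is per gene length, the share of ST8SIA2 ranged from 68.6% to 70.5% with si-SCR and from 69.5% to 74.4% with si-CyCoNP, and these ranges overlapped.

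ST8SIA3 adds short chains of sialic acid to glycoproteins and glycolipids and is best known from brain. It lies at chr18:57352557-57371731 on the plus strand (ENSG00000177511, 4 exons). It had 427, 291 and 340 counts with si-SCR and 296, 206 and 222 counts with si-CyCoNP, which corresponded to 9.63, 7.49 and 6.89 FPKM and to 5.97, 4.70 and 5.19 FPKM. On the FPKM scale all si-CyCoNP libraries lay below all controls, and the lowest control was replicate 3. The means were 8.0 ± 1.44 and 5.29 ± 0.645 FPKM (SD, n = 3), and ST8SIA3 was 1.58-fold lower (log2 fold change -0.66, SE 0.126, edgeR, adjusted p = 0.000184). The call held in all 15 alternatives, where the log2 fold change ran from -0.79 to -0.49 and the largest adjusted p was 0.0436, from limma on log2(FPKM + 0.1). Within the family of ST8SIA1 to ST8SIA6, the share of summed FPKM held by ST8SIA3 was 47.2%, 43.6% and 35.6% with si-SCR and 31.5%, 29.4% and 31.7% with si-CyCoNP. The share of ST8SIA2 was 35.1%, 37.8% and 44.7% with si-SCR and 50.1%, 47.3% and 50.5% with si-CyCoNP. Neither pair of ranges overlapped. These shares are parts of the same sum, so a fall of ST8SIA3 raises the share of ST8SIA2, which itself did not pass the test. The sum of the family was 19.0 ± 1.65 FPKM with si-SCR and 17.1 ± 1.64 FPKM with si-CyCoNP (SD, n = 3).

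**Figure D1:**
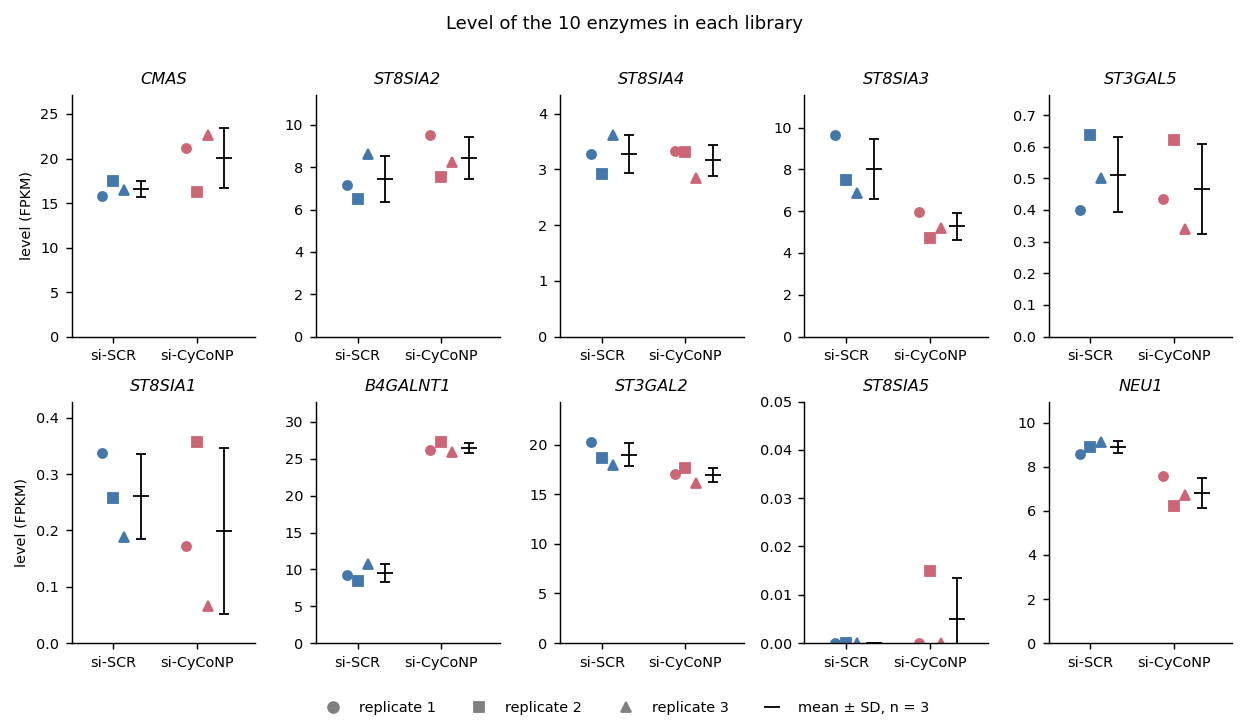
Level in FPKM (vertical axes, each starting at 0 with its own range) of the 10 enzymes in each library, with si-SCR in blue and si-CyCoNP in red, one symbol per replicate and bars for the mean ± SD of 3 libraries. B4GALNT1 rose from a mean of 9.47 to 26.5 FPKM, ST8SIA3 and NEU1 lay lower in every si-CyCoNP library than in any control, and ST8SIA5 had 1 count in all.

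NCAM1, the main carrier of polysialic acid, was at 53.1, 56.6 and 39.3 FPKM with si-SCR and at 25.8, 23.5 and 23.1 FPKM with si-CyCoNP. All si-CyCoNP libraries lay below the lowest control, which was replicate 3, and without that control the log2 fold change of NCAM1 was -1.27. The level of NCAM1 RNA per unit of summed ST8SIA2 and ST8SIA4 was 5.09, 6.0 and 3.2 with si-SCR and 2.01, 2.16 and 2.09 with si-CyCoNP. The mean of this ratio was 4.77 ± 1.43 and 2.09 ± 0.0759 (SD, n = 3), with no overlap, and it is a ratio of RNA levels that says nothing of the protein or of its sugar. NRP2, a receptor that can also carry polysialic acid, had 364, 307 and 373 counts with si-SCR and 148, 101 and 143 counts with si-CyCoNP. Its mean went from 5.86 ± 0.244 to 2.14 ± 0.392 FPKM (SD, n = 3), a log2 fold change of -1.52 (SE 0.126, edgeR, adjusted p = 5.28e-10). CADM1, an adhesion molecule and the other carrier looked at, was at 51.3 ± 2.45 FPKM with si-SCR and 52.3 ± 5.55 FPKM with si-CyCoNP (SD, n = 3). Its log2 fold change of -0.04 had a 95% interval from -0.21 to 0.13 (edgeR, adjusted p = 0.769), and its sign changed with the scaling.

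ST3GAL5 and ST8SIA1 stand at the start of ganglioside synthesis, where ST3GAL5 makes GM3 and ST8SIA1 turns GM3 into GD3. Both were scarce. ST3GAL5 (ENSG00000115525, chr2:85837120-85905199, minus strand, 7 exons) had 28, 39 and 39 counts with si-SCR and 34, 43 and 23 counts with si-CyCoNP, or 0.512 ± 0.118 and 0.465 ± 0.143 FPKM (SD, n = 3). ST8SIA1 (ENSG00000111728, chr12:22063773-22437041, minus strand, 5 exons) had 21, 14 and 13 counts with si-SCR and 12, 22 and 4 counts with si-CyCoNP, or 0.261 ± 0.0750 and 0.199 ± 0.147 FPKM (SD, n = 3). The groups overlapped for both genes, with the lowest values in si-CyCoNP replicate 3. They were below the filter, and in a fit with no filter the log2 fold change of ST3GAL5 was -0.19, with a 95% interval from -0.70 to 0.32 (edgeR, adjusted p = 0.671). In the same fit that of ST8SIA1 was -0.44, with a 95% interval from -1.20 to 0.31 (edgeR, adjusted p = 0.561). With 206 counts of ST3GAL5 and 86 counts of ST8SIA1 over the 6 libraries, the intervals are wide, and differences of the sizes inside them are not excluded.

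B4GALNT1 adds N-acetylgalactosamine to GM3 and GD3 and so makes GM2 and GD2. It lies at chr12:57623409-57633239 on the minus strand (ENSG00000135454, 11 exons). It had 313, 249 and 407 counts with si-SCR and 991, 915 and 849 counts with si-CyCoNP, or 9.24, 8.39 and 10.8 FPKM and 26.2, 27.3 and 26.0 FPKM. Every si-CyCoNP library lay far above the highest control, which was replicate 3, and the si-CyCoNP libraries lay close together. The means were 9.47 ± 1.22 and 26.5 ± 0.718 FPKM (SD, n = 3), and the 95% interval of the log2 fold change ran from 1.22 to 1.60. The call held in all 15 alternatives, where the log2 fold change ran from 1.34 to 1.50 and the largest adjusted p was 0.000786. Of the annotated exon bases of B4GALNT1, 27.1% are shared with the pseudogene SLC26A10P on the opposite strand, which had 0 counts in every library.

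ST3GAL2 adds the terminal sialic acid of the complex brain gangliosides, downstream of B4GALNT1. It lies at chr16:70375977-70439237 on the minus strand (ENSG00000157350, 7 exons). It was at 20.3, 18.7 and 18.0 FPKM with si-SCR and 17.0, 17.6 and 16.2 FPKM with si-CyCoNP. The si-CyCoNP libraries lay just below the controls without overlap, and the highest of them, replicate 2, was next to si-SCR replicate 3. The means were 19.0 ± 1.18 and 17.0 ± 0.725 FPKM (SD, n = 3), a log2 fold change of -0.23 (SE 0.0857, edgeR, adjusted p = 0.0438). The call was lost in 10 of 15 alternatives, among them DESeq2 (adjusted p = 0.0641), edgeR with library totals alone (adjusted p = 0.163) and the omission of any 1 library other than si-SCR replicate 3 (edgeR, adjusted p from 0.0723 to 0.206).

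ST8SIA5 makes the most highly sialylated gangliosides and had 1 count in all, in si-CyCoNP replicate 2. The gene lies at chr18:46667821-46759257 on the minus strand (ENSG00000101638, 7 exons). A count of 0 in a library allows up to 3 counts, so no difference was detectable at this depth, and no fold change is given.

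The RNA level of B4GALNT1 relative to ST3GAL2 and to ST3GAL5 was higher with si-CyCoNP, and enzymes and gangliosides themselves were not measured. The ratio of B4GALNT1 to ST3GAL2 in FPKM was 0.455, 0.450 and 0.599 with si-SCR and 1.54, 1.55 and 1.60 with si-CyCoNP, so that ST3GAL2 was the higher of the pair in every control and B4GALNT1 in every si-CyCoNP library. B4GALNT1 made up 12.9% ± 1.46 (SD, n = 3) of the FPKM summed over the 10 enzymes with si-SCR and 30.2% ± 2.06 (SD, n = 3) with si-CyCoNP. The sum itself was 73.4 ± 1.85 and 87.8 ± 3.77 FPKM (SD, n = 3), while the sum without B4GALNT1 was 63.9 ± 1.39 and 61.3 ± 4.38 FPKM (SD, n = 3), with overlapping ranges. The ratio of B4GALNT1 to ST3GAL5, the enzyme of its precursor, was 23.1, 13.2 and 21.6 with si-SCR and 60.2, 44 and 76.3 with si-CyCoNP, and rests on few counts of ST3GAL5.

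NEU1 is the lysosomal sialidase, which cleaves sialic acid from glycoproteins and glycolipids. It lies at chr6:31857659-31862905 on the minus strand (ENSG00000204386, 6 exons). It had 175, 159 and 207 counts with si-SCR and 172, 125 and 132 counts with si-CyCoNP, or 8.60, 8.92 and 9.13 FPKM and 7.56, 6.21 and 6.72 FPKM. The groups did not overlap on the FPKM scale, and si-CyCoNP replicate 1 was the closest to the controls. The means were 8.88 ± 0.269 and 6.83 ± 0.685 FPKM (SD, n = 3), and NEU1 was 1.36-fold lower (log2 fold change -0.44, SE 0.125, edgeR, adjusted p = 0.00847). Without si-CyCoNP replicate 2 the log2 fold change was -0.37 and the call was lost (edgeR, adjusted p = 0.0559), and it held in the other 14 alternatives. Without that library 1 of the 10 enzymes was called lower, namely ST8SIA3, instead of 3.

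Ordered by level per gene length, ST3GAL2 led with si-SCR, followed by CMAS, and these did not overlap with each other or with the next gene. B4GALNT1, NEU1, ST8SIA3 and ST8SIA2 followed between means of 9.47 and 7.44 FPKM, each overlapping with its neighbour in the order. ST8SIA4 lay below them, and ST3GAL5, ST8SIA1 and ST8SIA5 came last in this order, each apart from the next. In si-CyCoNP B4GALNT1 stood first and did not overlap with CMAS, while CMAS and ST3GAL2 overlapped. ST8SIA2 and NEU1 overlapped next, then came ST8SIA3 and ST8SIA4, each apart from its neighbours, and ST3GAL5 and ST8SIA1 overlapped near the floor. B4GALNT1 thus went from rank 3 to rank 1 and ST8SIA3 from rank 5 to rank 6 of the 10.

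**Figure D2:**
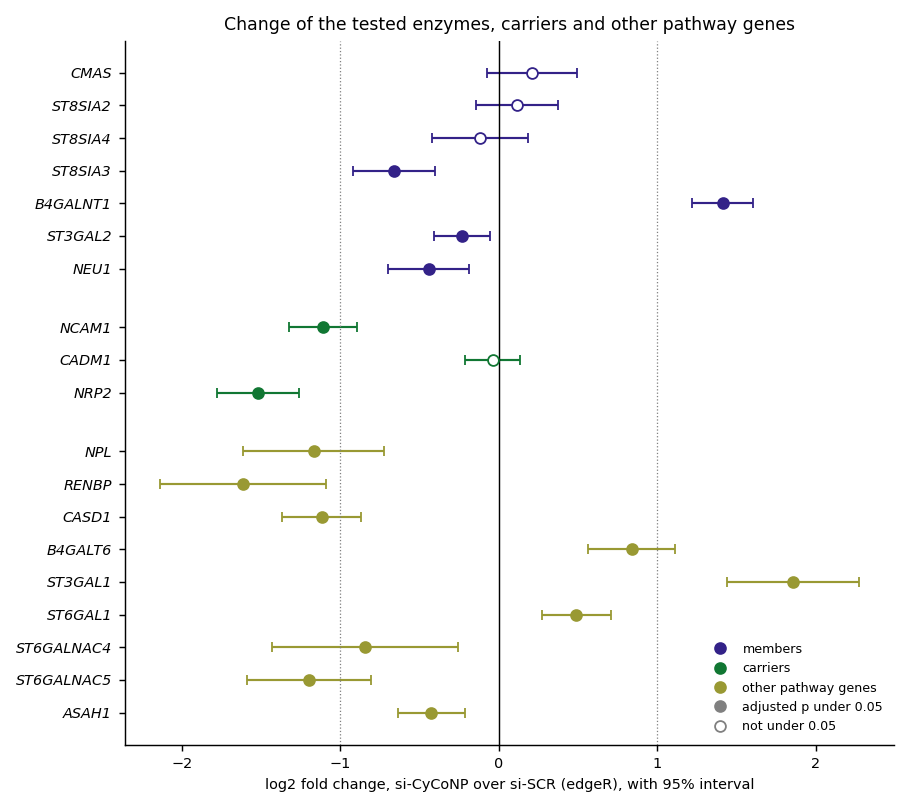
Log2 fold change of si-CyCoNP over si-SCR (horizontal axis, edgeR fit of 3 against 3 libraries) with its 95% interval for the 7 tested enzymes, the 3 carriers of polysialic acid and 9 of the 10 other pathway genes with the smallest p-values, where filled symbols have an adjusted p under 0.05 and dotted lines mark -1 and 1. B4GALNT1 (1.41) stands apart from the other enzymes, which lie between -0.66 and 0.21, and NCAM1 and NRP2 lie below -1 while CADM1 lies at -0.04.

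Beside these enzymes, 41 other genes of sialic acid and glycosphingolipid metabolism were looked at as lists, of which 30 were tested and 11 lay below the filter. Of the 30, 3 were higher and 8 were lower (edgeR, adjusted p under 0.05), 1 of them above a log2 fold change of 1 and 4 below -1. Over all genes tested 14.2% were higher and 14.2% lower, 2.28% above 1 and 2.98% below -1. The groups did not overlap for 13 of the 30, a share near the 40.3% of all genes tested. Their median log2 fold change was -0.08, and the range was -1.62 to 1.86. ST3GAL1, the 1 gene above a log2 fold change of 1, was among those that reached the filter in 1 group alone, in its case si-CyCoNP. Such a gene could be tested only if it was higher in that group, so these counts are given as a description.

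Among the 7 genes of sialic acid supply, all of which were tested, 2 were lower and none was higher. Over all genes tested, 14.2% were called in each direction. RENBP, an epimerase of N-acetylglucosamine that affects the supply of the precursor, was at 7.28, 7.40 and 5.31 FPKM with si-SCR and 2.24, 2.64 and 1.89 FPKM with si-CyCoNP (log2 fold change -1.62, SE 0.255, edgeR, adjusted p = 1.77e-05). NPL, the lyase that breaks down free sialic acid, was at 2.95, 3.58 and 3.40 FPKM and at 1.47, 1.94 and 1.21 FPKM (log2 fold change -1.17, SE 0.217, edgeR, adjusted p = 0.000147). Both genes lay lower in every si-CyCoNP library than in any control. The 5 other genes did not pass the test.

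CASD1, which adds O-acetyl groups to sialic acid including that of GD3, was the 1 gene of the 2 in its list that was tested. It was at 14.0, 12.8 and 11.5 FPKM with si-SCR and 6.42, 5.82 and 6.24 FPKM with si-CyCoNP, without overlap (log2 fold change -1.12, SE 0.120, edgeR, adjusted p = 5.08e-08). In glycosphingolipid core synthesis, 5 of 7 genes were tested. Against 14.2% of all genes tested in each direction, none was lower and 1 was higher. This gene was B4GALT6, a lactosylceramide synthase and so a step before ST3GAL5, at 5.84, 4.86 and 4.41 FPKM with si-SCR and 9.07, 10.0 and 9.18 FPKM with si-CyCoNP (log2 fold change 0.84, SE 0.132, edgeR, adjusted p = 1.85e-05). The lowest si-CyCoNP value of B4GALT6 was above its highest control.

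Of the 13 other sialyltransferases 7 were tested. Against 14.2% of all genes tested in each direction, 2 were higher and 2 were lower. As stated above, ST3GAL1 could be tested only if it was higher. ST3GAL1, which caps O-glycans, was at 0.631, 0.661 and 0.898 FPKM with si-SCR and 3.22, 2.50 and 2.64 FPKM with si-CyCoNP (log2 fold change 1.86, SE 0.204, edgeR, adjusted p = 6.86e-08). ST6GAL1, which caps N-glycans, was at 12.1, 16.2 and 13.1 FPKM and at 17.8, 23.4 and 19.8 FPKM (log2 fold change 0.49, SE 0.106, edgeR, adjusted p = 0.000824). Both were higher in every si-CyCoNP library than in any control. ST6GALNAC5, which adds a branching sialic acid to gangliosides, was at 4.11, 3.47 and 3.55 FPKM with si-SCR and 1.48, 1.55 and 2.07 FPKM with si-CyCoNP (log2 fold change -1.20, SE 0.190, edgeR, adjusted p = 1.87e-05). ST6GALNAC4, which acts mainly on O-glycans, was at 2.65, 3.63 and 3.34 FPKM and at 2.53, 1.43 and 1.56 FPKM (log2 fold change -0.84, SE 0.286, edgeR, adjusted p = 0.0270). The si-CyCoNP libraries of ST6GALNAC5 lay well below the controls, whereas replicate 1 of ST6GALNAC4 lay close to the lowest control. The call of ST6GALNAC4 was lost in 6 alternatives, among them the omission of si-SCR replicate 2, si-CyCoNP replicate 2 or si-CyCoNP replicate 3 (edgeR, adjusted p = 0.0967, 0.122 and 0.0902).

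Of the 12 genes of sialidases and ganglioside breakdown other than NEU1, 10 were tested. None was higher and 3 were lower, where 14.2% of all genes tested were called in each direction. ASAH1, the acid ceramidase at the end of the pathway, went from 5.05 ± 0.364 to 3.94 ± 0.193 FPKM (SD, n = 3). The log2 fold change was -0.43 (SE 0.103, edgeR, adjusted p = 0.00232). Another was GALC, a galactosidase of sphingolipids, at -0.38 (edgeR, adjusted p = 0.0308), which was not among the 10 pathway genes with the smallest p-values and is named here after its value was seen. The groups did not overlap for either gene, and si-CyCoNP replicate 1 of GALC lay next to the lowest control. These small differences depended on the settings, since the calls were lost in 7 alternatives for GALC and in 2, both with limma on log2 FPKM, for ASAH1. Without si-SCR replicate 2, si-CyCoNP replicate 2 or si-CyCoNP replicate 3 the call of GALC was lost (edgeR, adjusted p = 0.139, 0.165 and 0.0931).

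**Figure D3:**
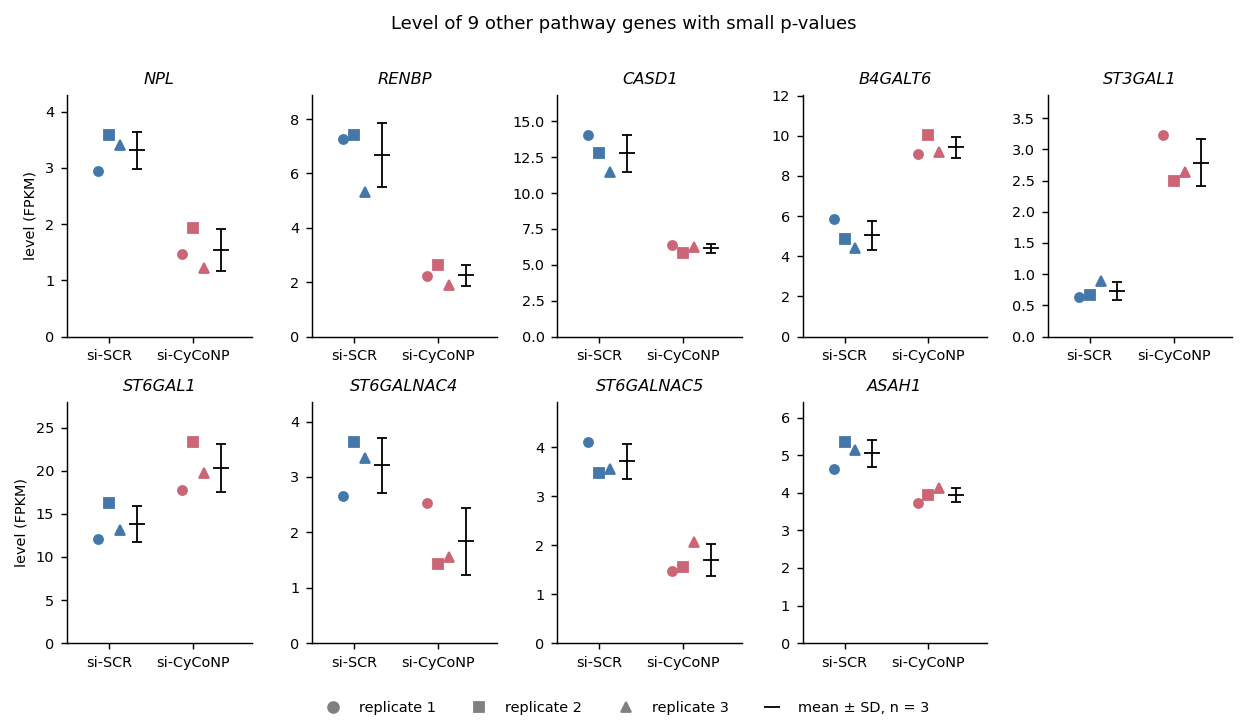
Level in FPKM (vertical axes, each starting at 0 with its own range) of 9 of the 10 other pathway genes with the smallest p-values in each library, with si-SCR in blue, si-CyCoNP in red, one symbol per replicate and bars for the mean ± SD of 3 libraries. ST3GAL1, ST6GAL1 and B4GALT6 lie higher with si-CyCoNP and the other 6 lower, and replicate 1 of ST6GALNAC4 (3.21 against 1.84 FPKM on average) lies close to the lowest control.

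The 7 pathway genes CASD1, ST3GAL1, RENBP, B4GALT6, ST6GALNAC5, NPL and ST6GAL1 kept their calls in all 15 alternatives, as did B4GALNT1, ST8SIA3, NCAM1 and NRP2. Leaving out si-SCR replicate 3, the control nearest to the other group, gave a log2 fold change of 1.50 for B4GALNT1 and -0.79 for ST8SIA3, and of 0.22 for ST8SIA2 and -0.06 for ST8SIA4, neither of which passed the test in that fit (edgeR, adjusted p = 0.230 and 0.835). Without that library 5 in place of 3 pathway genes were called higher. The plot of the alternatives shows ST3GAL2 as the enzyme whose call depended most on the setting.

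**Figure D4:**
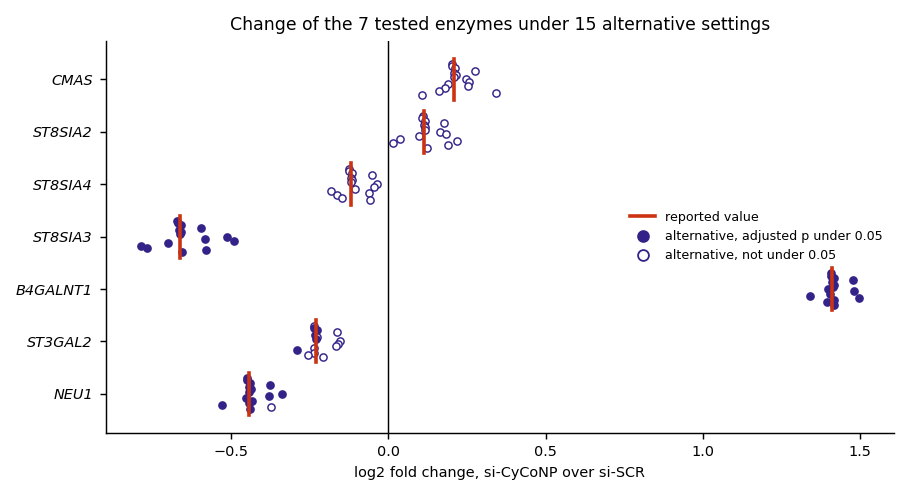
Log2 fold change of si-CyCoNP over si-SCR (horizontal axis) for the 7 tested enzymes under 15 alternative settings (points, filled where the adjusted p is under 0.05) and as reported (red lines). The points of B4GALNT1 lie between 1.34 and 1.50 and those of ST8SIA3 between -0.79 and -0.49, all filled, whereas 10 of the 15 points of ST3GAL2 and 1 of NEU1 are open.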

How the data were processed

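Both tables were made by the authors from stranded total RNA libraries depleted of ribosomal RNA. Per the labels, the tools were Trimmomatic 0.39, cutadapt 3.2, Bowtie2 2.4.2 and STAR 2.7.7a, with the GRCh38 genome. The first table holds the deposited raw counts per Ensembl gene from STAR, which leaves out fragments with several possible positions, so genes with close copies are undercounted. The second holds the FPKM values deposited by the authors, scaled by gene length and library total, and the gene length implied by both tables was the same across libraries for the 22586 genes counted in 2 or more of them (within a relative 1e-06). Genes contained in an exon of another gene had a count in 29.5% of 792 cases when the strands were opposite and in 7.28% of 961 cases when the strand was shared, so counts of antisense neighbours were taken as separate. Groups and replicate numbers came from the sample titles. Nothing in the labels says whether libraries came from separate cultures. The p-values set the difference between the groups against the spread within them, and this spread may be technical. Replicates were distinct libraries (chi-square per degree of freedom 2.56 to 5.69).

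The filter of the study, a mean of at least 1 FPKM in either group, left 13966 genes. After TMM scaling, counts were tested by quasi-likelihood in edgeR (version 4.0.16, R 4.3.3), with Benjamini-Hochberg adjustment over all genes tested. The script was tested on simulated data. The methods of the study name DESeq2, and a legend of its supplement names the likelihood ratio test of edgeR. DESeq2 was an alternative here (version 1.42.0). So were edgeR fits scaled by library totals, by upper quartiles or by the size factors of DESeq2. Further edgeR fits used filterByExpr, no filter or a replicate block, or left out each library in turn. The last were limma 3.58.1 on log2(FPKM + 1) and log2(FPKM + 0.1), computed from the deposited FPKM, which made 15 alternatives in all. Principal components used log2 CPM (counts relative to the library size) with a prior count of 2. The genes named were the 10 enzymes, LINC02381, 3 carriers of polysialic acid and, of 41 other pathway genes, those at an adjusted p under 0.05 or the 10 with the smallest p-values. These genes, the pathway lists and the marker lists were chosen with earlier results of these data known. The values of 3 listed genes are not reported here, and they enter only the counts over lists. Gene positions and 3′ UTRs came from GENCODE release 44 and the miRNA from RefSeq. A gene position is of that annotation, while counts rest on the older Ensembl annotation of the authors.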

Additional observations from a re-analysis of the deposited data

How the results depend on the processing

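Of 420 values from 28 results under 15 alternatives, 376 kept their direction and their side of the threshold or, for counts, stayed within 1.5 times, 31 lost significance, 8 counts moved further and 5 values changed sign. All 5 were of CADM1, which did not pass the test in any setting, with log2 fold changes of 0.029 with library totals alone, 0.024 on both limma scales, 0.016 when si-SCR replicate 1 was left out and 0.019 when si-CyCoNP replicate 2 was, and a range of -0.13 to 0.019 over the fits with 1 library left out. Pathway genes called lower numbered 5 with DESeq2, 4 with limma on log2(FPKM + 1) and 4 with limma on log2(FPKM + 0.1), in place of 8. All genes called lower numbered 1118 and 1113 on the limma scales, in place of 1990. Scaling by library totals alone called 2454 genes higher and 1575 lower, in place of 1981 and 1990, and the median log2 fold change of all genes moved by 0.066. Leaving out 1 library at a time gave 1 to 3 enzymes lower (1 without si-CyCoNP replicate 2), 3 to 5 pathway genes higher (5 without si-SCR replicate 3) and 6 to 9 lower, and 1611 to 2174 of all genes higher and 1618 to 2224 lower. The cause of these shifts was not tested.

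The main fit did not pair libraries by replicate number, since the labels do not say what a shared number means. Deviations of libraries with the same number had correlations of 0.0907, 0.0727 and 0.108. Those of libraries with different numbers lay between -0.0666 and -0.0229. Each library thus correlated best with its own number, a hint of pairing from the data and not from the design. With a replicate block 1 enzyme was higher and 3 were lower, 5 pathway genes were higher and 9 lower, and 2402 of all genes were higher and 2368 lower.

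Depth limits the scarce enzymes ST8SIA1, ST3GAL5 and ST8SIA5 most. Totals describe the count table, since they lie far below the sequenced reads the study states, and what separates them was not analysed here. Counts carry no molecular identifiers, and the floor of 3 counts covers counting error only.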
